A study of Homo sapiens with 8 samples.

Results

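Glucose breakdown and the response to low oxygen were described through 38 genes in hCMEC/D3, an immortalised human brain microvascular endothelial line that stands in for the blood-brain barrier in culture. The genes were chosen by symbol, and all 38 were among the 23346 genes of the deposited table. They comprised 9 genes of the preparatory steps of glycolysis, 3 PFKFB regulators, 5 genes of the payoff steps, 5 genes of pyruvate fate, 3 pentose phosphate genes, 6 HIF control genes and 7 HIF targets outside glycolysis. Polyadenylated RNA was sequenced in 8 replicate libraries, which formed 1 group, so no treatment, oxygen level or time was compared. The labels gave neither the oxygen tension nor a batch and did not say whether the replicates were separate cultures, so the p-values measure the spread between these libraries, which may be technical. All libraries came from 1 line, and in such bulk RNA fewer cells expressing a gene and less RNA per cell cannot be told apart.

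Glycolysis converts glucose to pyruvate in the cytosol and is a main source of ATP in endothelial cells. The pentose phosphate pathway branches from its early steps and supplies NADPH and ribose. When oxygen is plentiful, EGLN prolyl hydroxylases mark the alpha subunits of the hypoxia-inducible factors (HIF) for the VHL ubiquitin ligase. When it is scarce, the subunits persist, pair with ARNT and activate genes that include many glycolytic enzymes. This control acts largely on protein, so the mRNA levels given here do not measure HIF activity.

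HIF complexes bind DNA at a short core, spelled ACGTG or GCGTG. The 250 bases upstream of the start site (RefSeq, GRCh38.p14) were available for 34 of the 38 genes, and both strands were searched. Of these, 23 (67.6%) held at least 1 core, against 43.1% of the 27305 promoter windows in the table and 58.5% of the 8607 windows of detected genes. ACGTG stood in 44.1% of the member windows and in 23.9% of those of detected genes, whereas GCGTG stood in 41.2% and 46.4%. Windows are shown for HIF1A, whose level varied most between libraries, for LDHA and BNIP3, which held several cores, and for CA9, which was not detected. They are written 5′ to 3′ on the gene's strand, with either core or its reverse complement in capitals.
HIF1A: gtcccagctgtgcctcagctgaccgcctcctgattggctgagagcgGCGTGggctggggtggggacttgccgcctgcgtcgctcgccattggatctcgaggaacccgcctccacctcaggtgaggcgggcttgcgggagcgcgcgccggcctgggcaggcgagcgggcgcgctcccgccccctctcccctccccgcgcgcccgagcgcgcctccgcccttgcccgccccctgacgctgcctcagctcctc
LDHA: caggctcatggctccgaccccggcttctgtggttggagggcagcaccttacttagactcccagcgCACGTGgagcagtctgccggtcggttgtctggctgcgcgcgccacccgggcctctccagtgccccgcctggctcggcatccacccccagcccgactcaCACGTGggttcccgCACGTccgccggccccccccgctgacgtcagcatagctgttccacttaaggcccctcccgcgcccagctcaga
BNIP3: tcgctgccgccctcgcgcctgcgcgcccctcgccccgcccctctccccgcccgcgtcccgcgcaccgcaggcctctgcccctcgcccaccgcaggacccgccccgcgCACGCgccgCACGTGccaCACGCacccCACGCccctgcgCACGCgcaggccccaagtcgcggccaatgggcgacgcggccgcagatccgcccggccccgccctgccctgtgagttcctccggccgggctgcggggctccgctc
CA9: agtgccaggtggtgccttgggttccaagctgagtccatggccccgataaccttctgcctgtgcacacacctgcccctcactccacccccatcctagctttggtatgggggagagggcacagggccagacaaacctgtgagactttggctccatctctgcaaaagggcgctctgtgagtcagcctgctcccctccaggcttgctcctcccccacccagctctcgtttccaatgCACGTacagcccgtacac

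The HIF1A window (chr14:61695263-61695512, plus strand) held 1 core. The LDHA window (chr11:18394313-18394562, plus strand) held 5 matches, and the BNIP3 window (chr10:131981924-131982173, minus strand) held 6. Some of these overlap, because CACGTG reads as ACGTG on both strands. The CA9 window (chr9:35673678-35673927, plus strand) held 1 match, beginning 18 bases before the start site. No match was found in the windows of PDK1 or EGLN3. Only 1 window per gene was searched, so other start sites of these genes are not covered. A match is a description of the letters and shows no binding.

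Total counts lay between 69388544 and 90205244 per library. All 10 endothelial markers examined were detected, as were 2 of 6 epithelial markers (KRT18 and KRT8), 3 of 6 mural, 2 of 6 neuronal, 0 of 5 astrocyte and 0 of 5 microglial markers. Replicates 2, 7 and 8 stood apart in how their levels depended on transcript length. Each time length doubled, a library's log2 deviation shifted by -0.21, -0.10 and -0.32 in these 3 and by 0.08 to 0.14 in the other 5. On the authors' values from conditional quantile normalisation (CQN, a log2 scale adjusted for length and GC content) the shift was between -0.01 and 0.01 in all 8.

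Detection was defined as at least 1 CPM (counts scaled to a common depth with TMM library sizes) in each of the 8 libraries. This held for 36 of the 38 genes, against 51.3% of all genes in the table. Levels of different genes are compared as RPKM, the CPM per kilobase of the reference transcript, clipped to the deposited gene bounds. Clipping left 2344 of 4812 bases for PGK1, 4537 of 14072 for PDK1 and 2083 of 4547 for P4HA2. The RPKM of these genes would be lower with the full transcript, which their SDs do not cover. The median over the 36 detected genes was 52.4 RPKM, against 12.8 over all detected genes, and 29 of the 36 lay above the latter.

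**Figure D1:**
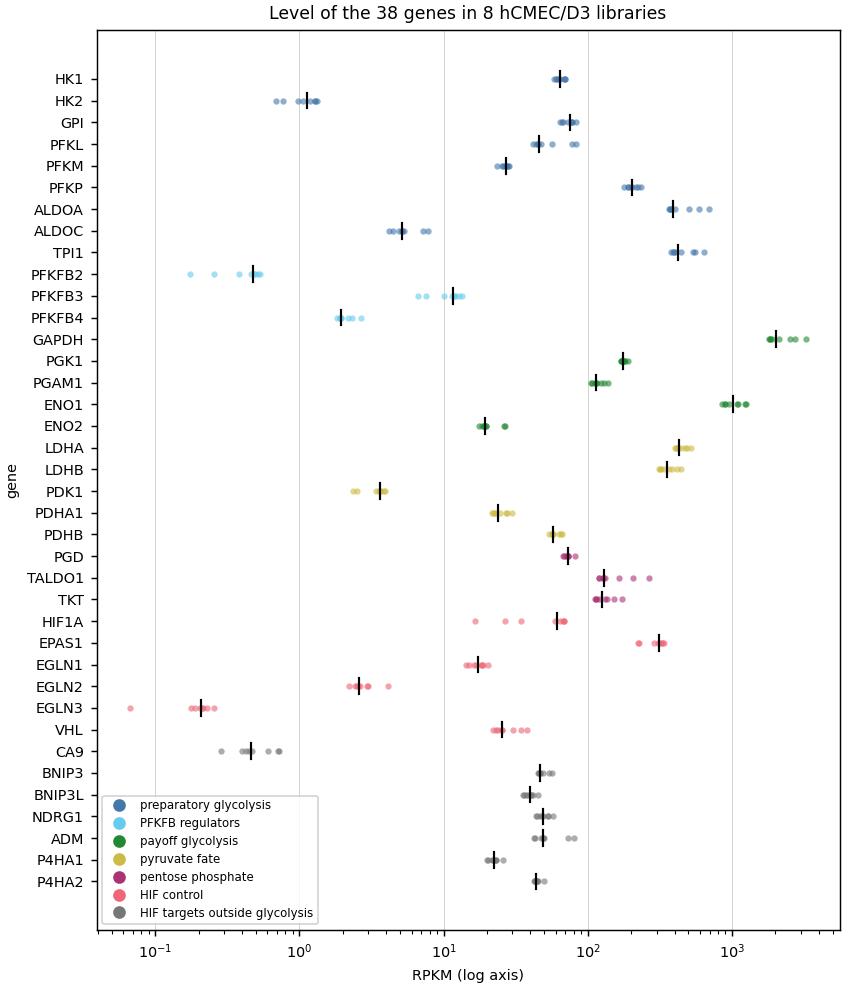
RPKM on a log axis for the 38 genes in each of the 8 libraries, coloured by gene list, with a bar at the median. GAPDH has the highest median, 2010 RPKM, while EGLN3 and CA9 lie below 1 RPKM in every library.

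The payoff steps, which recover ATP and NADH, held the most abundant transcripts. GAPDH, the dehydrogenase of glyceraldehyde 3-phosphate (chromosome 12, 6643585 to 6647537, hg19), ranged from 1810 to 3258 RPKM with a median of 2010. ENO1, the ubiquitous enolase (chromosome 1, 8921059 to 8939151), ranged from 852 to 1261 RPKM with a median of 1017. These 2 genes were the highest of the 38. PGK1, the kinase that makes the first ATP of the pathway, had 177 ± 6.52 RPKM (SD, n = 8) and the smallest coefficient of variation (CV) of the 36 detected genes, 3.69%. PGAM1, the mutase that follows it, had 118 ± 11.1 RPKM. ENO2, known as the neuronal enolase, ranged from 17.7 to 26.5 RPKM with a median of 19.4. GENCODE names 65 pseudogenes of GAPDH, 13 of PGAM1 and 4 of ENO1, and 16 of the 38 genes have at least 1 such copy. How reads shared with these copies were counted is not given in the sources used here.

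The preparatory steps, which spend ATP, spanned a wide range. TPI1, the triose phosphate isomerase, ranged from 381 to 637 RPKM with a median of 423. ALDOA, the main aldolase outside liver and brain, ranged from 366 to 693 with a median of 392. The ranges of these 2 genes overlapped almost entirely. GPI, the isomerase of glucose 6-phosphate, had 73.2 ± 6.65 RPKM (SD, n = 8). HK1, the widely expressed hexokinase, ranged from 58.3 to 69.8 RPKM with a median of 63.7. HK2, the inducible hexokinase, ranged from 0.682 to 1.32 RPKM with a median of 1.12, which put it at the 5.84 percentile of detected genes. Among the phosphofructokinase subunits, PFKP ranged from 180 to 234 RPKM (median 201), PFKL from 41.5 to 82.3 (median 46.3) and PFKM from 23.4 to 28.5 (median 27.0). The 3 subunits therefore did not overlap. ALDOC, the brain-type aldolase, ranged from 4.20 to 7.75 RPKM with a median of 5.15.

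The PFKFB enzymes make and break fructose 2,6-bisphosphate, the activator of phosphofructokinase. PFKFB3, whose balance of activities favours synthesis and which is known as a driver of endothelial glycolysis, ranged from 6.66 to 13.3 RPKM with a median of 11.7. PFKFB4 ranged from 1.83 to 2.67 RPKM with a median of 1.95. PFKFB2 ranged from 0.174 to 0.535 RPKM with a median of 0.475 and was the lowest of the 36 detected genes. The order PFKFB3, PFKFB4, PFKFB2 held in every library.

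The 16 genes of the preparatory and payoff steps with LDHA and LDHB took 0.948% ± 0.133 of all counts (SD, n = 8). The lowest share was 0.816% in replicate 1 (95% Wilson interval 0.813 to 0.819, on read pairs), and the highest was 1.15% in replicate 8 (1.15 to 1.16). Replicates 2 and 7 each had 1.07%, so the 3 libraries with negative length slopes were the 3 highest. Ribosomal protein genes took 5.72% to 7.50% of counts in those 3 libraries and 3.88% to 4.42% in the other 5. The part of transcript length in the glycolytic share was not tested. GAPDH made up 30.2% ± 2.47 of the counts of these 16 genes (SD, n = 8). PKM, the pyruvate kinase of the last payoff step, was not among them, so the glycolytic share and the GAPDH part leave it out. PKM had 1474 ± 171 CPM (SD, n = 8).

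At the end of the pathway, LDHA and LDHB encode the subunits of lactate dehydrogenase, which interconverts pyruvate and lactate. LDHA ranged from 402 to 517 RPKM with a median of 432, and LDHB from 314 to 442 with a median of 354. Their ranges overlapped. The pyruvate dehydrogenase subunits, which commit pyruvate to the mitochondrion, were lower. PDHA1 ranged from 21.7 to 29.8 RPKM (median 23.7) and PDHB from 54.2 to 66.4 (median 57.6). PDK1, the kinase that inhibits this enzyme and a known HIF target, had 3.37 ± 0.601 RPKM (SD, n = 8).

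Of the pentose phosphate genes, TALDO1 (transaldolase) ranged from 120 to 266 RPKM with a median of 130. TKT (transketolase) had 131 ± 21.6 RPKM and PGD (6-phosphogluconate dehydrogenase) had 72.4 ± 4.51 (SD, n = 8). All 3 genes were highest in replicate 8 on the CPM scale. On the CQN scale TALDO1 was again highest there (8.80), whereas PGD (8.02) and TKT (9.42) were not.

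Paralogs were compared within libraries as log2 ratios of RPKM + 0.1, by an exact two-sided sign-flip test adjusted over the 14 pairs. PDHA1 and PDHB, subunits of 1 enzyme and not alternatives to each other, were included as a pair. The smallest p that 8 libraries allow is 0.00781. In 13 of the 14 pairs all libraries lay on one side of equality. The same share over pairs of other genes was not computed, so it is not read as particular to these pairs. The p-values do not cover the choice of transcript length or scale. The largest ratios were those of ALDOA over ALDOC, 6.35 ± 0.14 (SD, n = 8), HK1 over HK2, 5.81 ± 0.40, and ENO1 over ENO2, 5.63 ± 0.25. In each of these 3 pairs the exact adjusted p was 0.00841 and the first gene was higher in 8 of 8 libraries. The order held under every alternative tried, but the sizes moved, to 4.95 for HK1 over HK2 with the merged length of all annotated exons (4.99 with a pseudocount of 1) and to 4.77 for ENO1 over ENO2 on CQN values (4.97 with the merged length). As shares of summed RPKM, HK1 made up 98.3% of the hexokinase pair, ALDOA 98.8% of the aldolase pair and ENO1 98.0% of the enolase pair.

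PFKP exceeded PFKL by 1.94 ± 0.31 and PFKM by 2.94 ± 0.15 (log2, SD, n = 8, exact adjusted p = 0.00841 for each). It made up 71.7% of the phosphofructokinase RPKM, PFKL 18.9% and PFKM 9.37%. PFKFB3 exceeded PFKFB2 by 4.42 ± 0.21 and PFKFB4 by 2.28 ± 0.38 (log2, SD, n = 8, exact adjusted p = 0.00841 for each). PFKFB2 is so low that a pseudocount of 1 in place of 0.1 lowered the first of these to 3.03. PDHA1 lay below PDHB, with a log2 ratio of -1.27 ± 0.07 (SD, n = 8, exact adjusted p = 0.00841). The size of that gap depended on length and scale, at -0.19 with the merged length of all annotated exons, -0.60 on CQN values and -0.12 on CPM.

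LDHA exceeded LDHB by 0.30 ± 0.19 (log2, SD, n = 8, exact adjusted p = 0.0156), in 7 of 8 libraries. The exception was replicate 8, at -0.01, and replicates 2 and 7 were the next lowest at 0.12 and 0.14. The difference depended on the length assigned to the genes. With the merged exon length the ratio was -0.070, on CQN values 0.64 and on CPM 0.94, so the order of these 2 abundant transcripts is not settled.

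**Figure D2:**
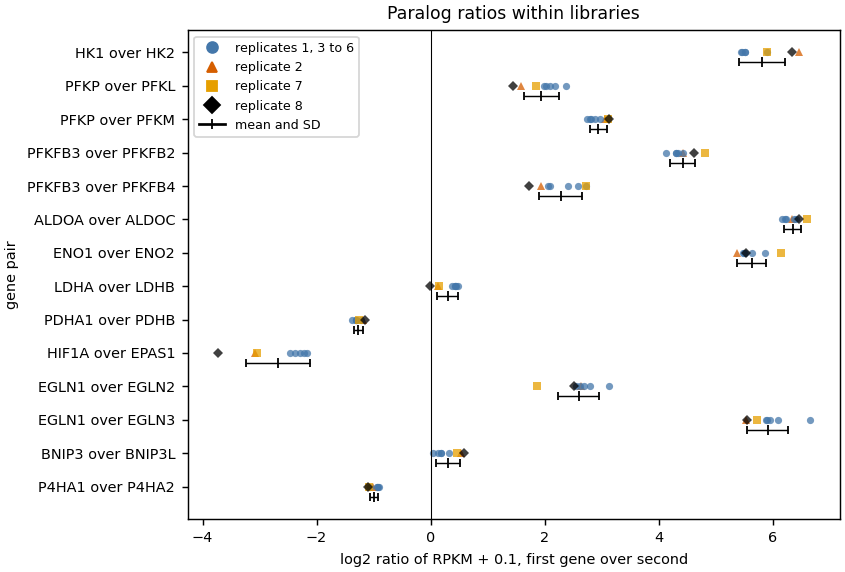
Log2 ratio of RPKM + 0.1 for 14 gene pairs, 1 point per library, with the mean and SD below the points and replicates 2, 7 and 8 marked. LDHA over LDHB reaches -0.01 in replicate 8, and HIF1A over EPAS1 spreads from -3.74 to -2.17.

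Both HIF alpha subunits among the listed genes were detected. HIF3A was counted with the other HIF control genes. EPAS1 (HIF-2 alpha, chromosome 2, 46524541 to 46613842) ranged from 221 to 337 RPKM with a median of 313. HIF1A (HIF-1 alpha, chromosome 14, 62162119 to 62214977, 15 exons) ranged from 16.5 to 68.2 RPKM with a median of 61.7. EPAS1 made up 86.0% of the pair, and the log2 ratio of HIF1A to EPAS1 was -2.68 ± 0.56 (SD, n = 8, exact adjusted p = 0.00841). It was -3.08, -3.05 and -3.74 in replicates 2, 7 and 8 and between -2.47 and -2.17 in the other 5.

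On counts, HIF1A was the only one of the 36 detected genes whose variation between libraries exceeded the edgeR trend for genes of its abundance. Over all detected genes 4.66% were above that trend (edgeR goodness-of-fit test, adjusted p under 0.05). With the DESeq2 trend in its place, 4 of the 36 were above, HIF1A, PFKFB2, PFKL and TALDO1, against 24.8% of detected genes. The CPM of HIF1A in replicates 1 to 8 was 254, 105, 269, 269, 233, 264, 137 and 65.2. Replicates 2, 7 and 8 were the 3 lowest. The CV was 41.9%, a value reached or passed by 5.28% of detected genes, and the edgeR adjusted p was 0.00262. On the CQN scale the values were 7.96, 7.26, 8.06, 8.13, 7.96, 8.09, 7.33 and 6.69, so the same 3 libraries were low after the authors' adjustment for length and GC content.

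The call for HIF1A rested on these libraries. Without replicate 8 the edgeR adjusted p was 0.0516, without replicates 2 and 8 it was 0.119, and without all 3 the unadjusted p was 0.590. With offsets taken from the CQN values, the edgeR adjusted p was 4.34e-06 with all libraries, 0.00459 without replicate 8 and 0.0194 without replicates 2 and 8. Without all 3 the unadjusted p with these offsets was 0.715. An antisense gene, HIF1A-AS2, overlaps the locus and had 0.355 to 2.65 CPM, and the kit did not mark strand.

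The other control genes showed different patterns. EPAS1 was also lowest in replicates 8 and 2, at 1142 and 1165 CPM, against 1482 to 1739 in the other 6. VHL, the substrate receptor of the ligase (chromosome 3, 10183319 to 10195354), was higher in the libraries where HIF1A was low, with 153, 134 and 167 CPM in replicates 2, 7 and 8 and 97.6 to 113 in the other 5. The CQN values of VHL were 7.75, 7.40 and 7.97 against 6.88 to 7.04. How many of all detected genes split replicates 2, 7 and 8 from the other 5 was not counted. The split is therefore not read as particular to VHL or HIF1A. VHL was above the trend with CQN offsets (edgeR adjusted p = 2.94e-04, and 0.514 without replicates 2 and 8) but not on counts (edgeR adjusted p = 1.00).

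EGLN1, the main oxygen-sensing hydroxylase, ranged from 14.3 to 20.2 RPKM with a median of 17.4. In replicates 2 and 8 it lay below its median of CPM and above its median of CQN values, so its direction depended on the scale. EGLN2 ranged from 2.22 to 4.09 RPKM with a median of 2.59, and EGLN3 from 0.067 to 0.254 RPKM with a median of 0.207. EGLN1 exceeded EGLN2 by 2.60 ± 0.35 and EGLN3 by 5.91 ± 0.36 (log2, SD, n = 8, exact adjusted p = 0.00841 for each). These sizes depended on the settings. EGLN1 over EGLN2 was 3.83 with the merged exon length and 3.66 on CPM, and EGLN1 over EGLN3 was 3.93 with a pseudocount of 1 and 6.96 on CPM. EGLN3, itself a HIF target, had 0.181 to 0.687 CPM and was 1 of the 2 undetected genes. On the CQN scale EGLN2 was lowest in replicates 2 and 8, at 3.27 and 3.06, against 3.86 to 4.36 in the others. On CPM its values there, 5.36 and 5.06, lay within the range of the others. EGLN2 shares its locus with the read-through gene RAB4B-EGLN2, so its level is uncertain.

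**Figure D3:**
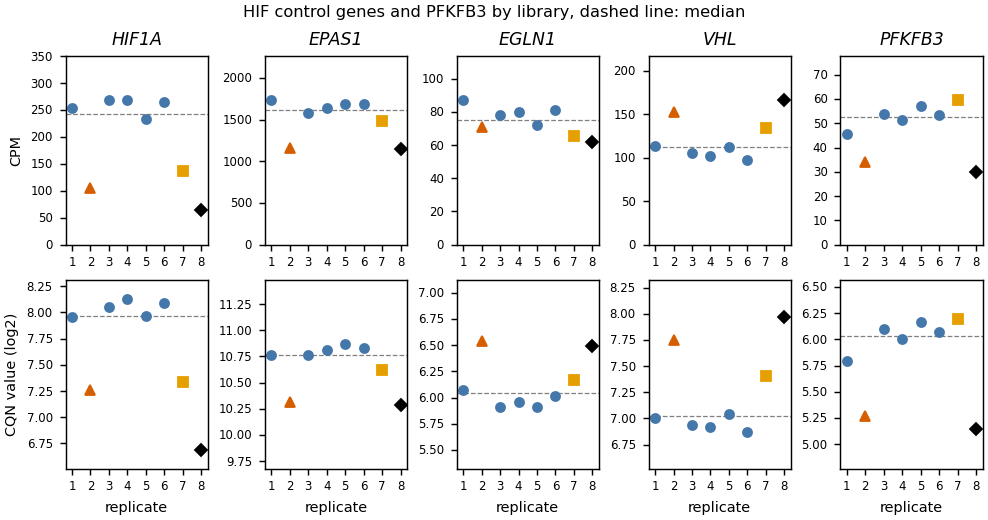
HIF1A, EPAS1, EGLN1, VHL and PFKFB3 by library in CPM (upper row) and as CQN log2 values (lower row, axis not from 0), with the median dashed. HIF1A is lowest and VHL highest in replicate 8 on both scales, and EGLN1 in replicates 2 and 8 changes side between the rows.

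PFKFB3 was above the trend with CQN offsets (edgeR adjusted p = 0.0181, and 0.105 without replicate 8) and not on counts (edgeR adjusted p = 1.00). It was low in replicates 2 and 8, at 33.9 and 29.8 CPM, against 45.5 to 59.7 in the other 6. Replicate 7, which was low for HIF1A, had its highest value. With CQN offsets 3 of 36 genes were above the trend, HIF1A, PFKFB3 and VHL, against 6.21% of detected genes.

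The HIF targets outside glycolysis had a median CV of 8.58%, over the 6 that were detected. CA9, a carbonic anhydrase widely used as a hypoxia marker (chromosome 9, 35673915 to 35681154), had 0.440 to 1.12 CPM and was not detected in all libraries. With a minimum of 10 counts in every library in place of the CPM minimum, CA9 and EGLN3 both passed. ADM, the vasodilator peptide adrenomedullin, had the highest mean of the list, ranging from 42.6 to 80.4 RPKM with a median of 49.0. It was high in replicates 2 and 8 on the CPM scale, at 106 and 116 against 61.7 to 71.6 in the other 6, but on the CQN scale its values there, 7.43 and 7.34, lay within the range of the others. NDRG1, a stress-response gene, had 49.4 ± 4.68 RPKM (SD, n = 8).

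BNIP3 and BNIP3L, receptors for mitophagy, and P4HA1 and P4HA2, collagen prolyl hydroxylase subunits, had small CVs of 5.21% to 8.71%. BNIP3 ranged from 45.4 to 56.5 RPKM (median 46.8) and BNIP3L from 35.8 to 45.4 (median 39.5). GENCODE names 44 pseudogenes of BNIP3 and 0 of BNIP3L, and how reads shared with such copies were counted is not given. P4HA1 ranged from 19.9 to 26.0 RPKM (median 22.3) and P4HA2 from 42.6 to 49.9 (median 43.95). The ratio of BNIP3 to BNIP3L was 0.31 ± 0.20 and that of P4HA1 to P4HA2 was -0.99 ± 0.08 (log2, SD, n = 8, exact adjusted p = 0.00841 for each). Both orders reversed with the merged exon length, to -0.83 and 1.10, so neither is settled.

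Deviations of the 36 genes from their means followed transcript length on the CPM scale. Of the 18 shorter genes (1199 to 2626 bases), 15 were above their mean in replicate 8, and of the 18 longer ones (2738 to 7073 bases) 7 were. Over all detected genes with a length, the shift in replicate 8 was -0.32 each time length doubled. The same counts over all detected genes were not made, so these are not read as particular to the 36 genes. On the CQN scale the counts of shorter and longer genes above their mean in replicate 8 were 10 and 11. Of the 36 genes, 17 (47.2%) had their highest CPM in replicate 8, against 35.97% of all detected genes. The median CV was 14.4% over the 36 genes and 19.2% over all detected genes.

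**Figure D4:**
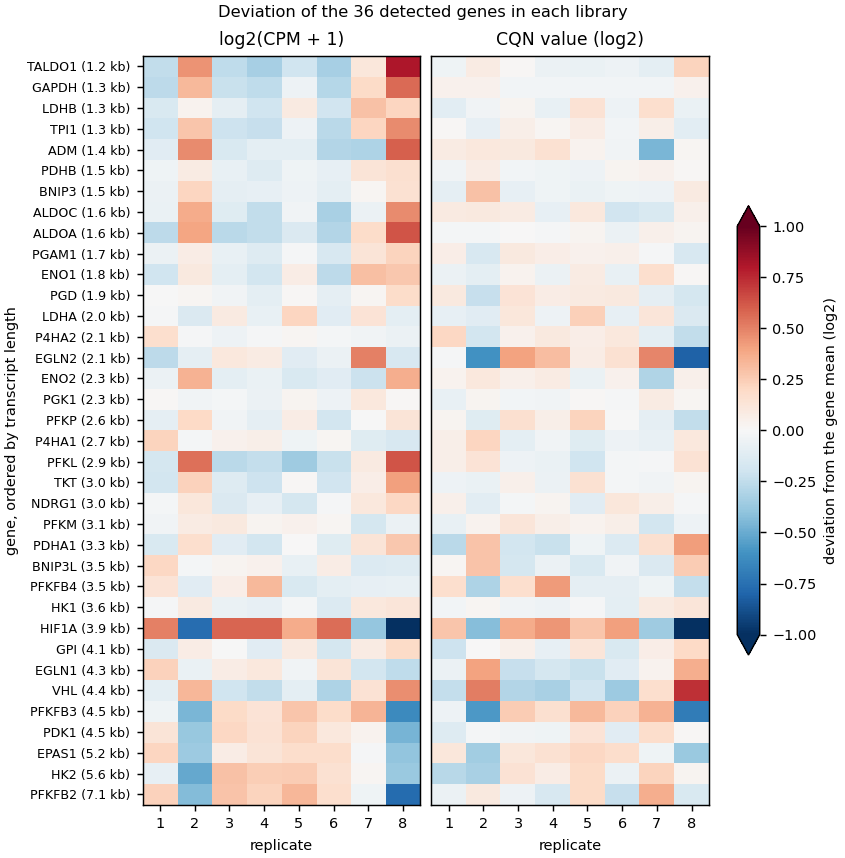
Deviation of each of the 36 detected genes from its mean (log2) in each library, ordered by transcript length, for log2(CPM + 1) and CQN values. On the left, short genes such as TALDO1 and GAPDH are high and long genes such as PFKFB2 low in replicate 8. On the right HIF1A, EGLN2, VHL and PFKFB3 deviate most there.

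PDK1 was used as an anchor to ask whether the other genes varied with a HIF target across libraries. Its CQN values spanned only 3.95 to 4.25 (SD 0.109, n = 8), and it was not above the variation trend. With so little variation in the anchor, the correlations cannot decide that question, and none is read as shared regulation. On CQN values 0 of 35 members correlated with it (exact permutation over all pairings, adjusted p under 0.05 over all detected genes), against 0.451% of detected genes. At an unadjusted p under 0.05 there were 7 of 35, against 14.8%, and by Spearman's rho 0 of 35 passed after adjustment. The strongest was LDHB, with Pearson's r = 0.90 (exact permutation p = 0.00786, adjusted 0.165) and rho = 0.79 (exact permutation p = 0.0279, adjusted 0.208). Without replicates 5 and 7, the libraries farthest from the PDK1 median, r was 0.37. ENO1 had r = 0.87 (exact permutation p = 0.00546, adjusted 0.147) and rho = 0.67 (exact permutation p = 0.0757, adjusted 0.315), and r was 0.42 without those 2. ALDOA had r = 0.85 (exact permutation p = 0.00565, adjusted 0.148) and rho = 0.84 (exact permutation p = 0.0131, adjusted 0.179), and r was 0.78 without them. The CQN values of ALDOA spanned only 10.18 to 10.28 (SD 0.033, n = 8).

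On log2(CPM + 1) 20 of 35 members passed, 5 positive and 15 negative, against 64.8% of detected genes. There PDK1 fell into separate ranges, with 11.4 and 10.6 CPM in replicates 2 and 8 and 15.5 to 17.7 in the other 6, so no relation is read from that scale. ALDOA had r = 0.85 on one scale and r = -0.93 on the other (exact permutation p = 0.00565 and 0.00275).

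**Figure D5:**
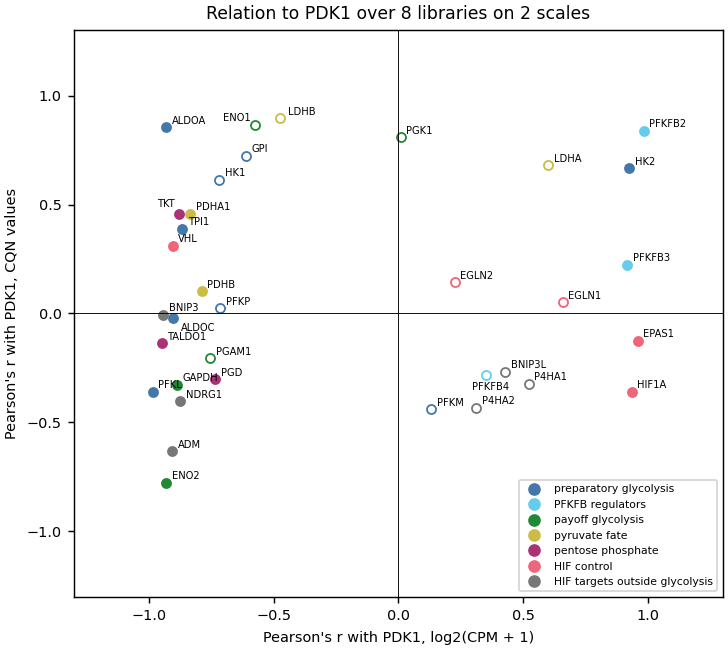
Pearson's r with PDK1 over 8 libraries for 35 genes, on log2(CPM + 1) (horizontal) and CQN values (vertical), coloured by list, with filled points where the adjusted p on log2(CPM + 1) was under 0.05. No gene passed on CQN values, and ALDOA changes from -0.93 to 0.85 between the axes.

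Other genes of the same pathways were counted from fixed lists. Over all genes in the table, 51.3% were detected. Of 25 other glycolysis genes 11 were detected, with PKM, the pyruvate kinase, highest at 640 ± 74.2 RPKM (SD, n = 8), followed by ADPGK (31.8 ± 3.44) and PGAM5 (31.2 ± 4.10). PGAM5 was listed by its name and is not an enzyme of a glycolytic step. Of 12 other pyruvate dehydrogenase genes 11 were detected, PDHA2 being the exception, with DLD, MPC2 and PDP1 highest at 28.3, 28.1 and 22.5 RPKM. Of 11 other pentose phosphate genes 9 were detected, TKTL1 and TKTL2 being the exceptions, and they included PRPS1 and PGLS at 39.0 and 38.9 RPKM. Of 10 other HIF control genes 9 were detected, all but ARNT2, with CITED2, TCEB2 and RBX1 highest at 142, 133 and 104 RPKM. None of these 4 lists had a gene above the variation trend, against 4.66% of all detected genes.

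Of 30 other HIF targets 28 were detected, all but MIF and PPP1R3C. MIF, with a transcript of 556 bases, overlaps the gene LOC284889. How reads shared by overlapping genes were counted is not given in the sources used here, so the level of MIF is uncertain. They included ANGPTL4, a secreted inhibitor of lipoprotein lipase, at 146 ± 46.9 RPKM and SLC16A3, a lactate exporter, at 135 ± 32.0 (SD, n = 8). The transcriptional repressor BHLHE40 (edgeR adjusted p = 0.0134) and the transferrin receptor TFRC (edgeR adjusted p = 0.00305) were above the trend. They were 2 of the 28 detected, against 4.66% of all detected genes.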

How the data were processed

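The authors sequenced polyadenylated RNA with a kit that does not mark strand, per the labels' protocols. The submitters' processing notes name CASAVA 1.9, TopHat2 2.0.6, HTSeq and hg19. The deposited table holds raw counts and, per the file headers, CQN log2 values. The CQN settings, gene annotation and strand use are not given in the sources used here. All 16 sample columns were matched and 0 belonged to other samples. None of the 186768 deposited counts was odd, so counting errors were computed on read pairs (counts divided by 2). A floor of 3 pairs corresponds to 0.0665 to 0.0865 CPM. Intervals and floors cover counting error only.

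CPM used TMM library sizes (edgeR 4.0.16, R 4.3.3). RPKM used the GENCODE reference transcript clipped to the deposited gene bounds. Variation between libraries was tested in an intercept-only model, comparing each gene's deviance with that of the edgeR dispersion trend (goodness of fit), with Benjamini-Hochberg adjustment over 11980 detected genes. In data simulated for that test, with 11980 genes, 171 of 200 genes raised in 1 library were recovered among 174 called. The simulated libraries had no difference by transcript length and no change shared by several libraries. The recovery therefore does not apply to patterns such as that of HIF1A. DESeq2 1.42.0, CQN offsets, other filters, lengths, pseudocounts and left-out libraries were alternatives. Named genes were those above the trend, undetected, highest in each list, in a pair or following PDK1, plus the 3 highest of each other list. Some genes of the other lists are not reported here. The genes and lists were chosen with earlier results of these data known. Leaving out replicates 2, 7 and 8 together, leaving out libraries with CQN offsets, and unclipped lengths were chosen after seeing the data.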

Additional observations from a re-analysis of the deposited data

Results flagged for a closer look

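Of 53 results examined, 4 had a library far from the other 7, by the gap to its neighbour over the whole range (critical value 0.526). Chance flags about 1 in 20. PGD was 156 CPM in replicate 8, above the next value of 139. EGLN2 was 8.60 CPM in replicate 7, above the next of 6.29, at a locus shared with a read-through gene. EGLN3 was 0.181 CPM in replicate 5, below the next of 0.476. P4HA2 was 104 CPM in replicate 1, above the next of 93.8. The causes were not tested.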

How the results depend on the processing

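No paired analysis was possible because the 8 libraries form 1 group and none could be matched to a library of another group; gene pairs were compared within libraries. Of the pair ratios, LDHA over LDHB was -0.070 with the merged exon length and 0.16 (exact adjusted p = 0.0547) with unclipped transcripts. BNIP3 over BNIP3L was -0.34 on CQN values, -0.87 on CPM and -0.83 with the merged exon length. P4HA1 over P4HA2 was 1.10 with the merged exon length and 0.13 with unclipped transcripts. These reversals follow from the lengths or scale used. All 14 pairs kept direction and call when any 1 library was left out. The number of members above the variation trend was 1 on counts with the edgeR trend and 4 on counts with the DESeq2 trend (2967 genes in all, 24.8%). It was 3 with CQN offsets (744 genes, 6.21%). Leaving out 1 library gave 0 to 1, with 0 without replicate 8. It was 0 without replicates 2 and 8 (335 genes in all, 2.75%) and 0 without replicates 2, 7 and 8 (297 genes, 2.42%). With CQN offsets it was 2 without replicate 8 (HIF1A and VHL; 601 genes, 4.98%), 1 without replicates 2 and 8 (487 genes, 4.00%) and 0 without replicates 2, 7 and 8 (336 genes, 2.74%). Over all genes 558 (4.66%) were above the trend, and 381 to 491 when 1 library was left out (381, 3.15%, without replicate 8). The glycolytic share without GAPDH and ENO1 was 0.476%. Members following PDK1 numbered 0 on CQN values (54 of 11979 genes, 0.451%) and 20 on log2(CPM + 1) (7764 genes, 64.8%). The fits that left out 1 library called 0 of all genes, except 52 genes and no member without replicate 5, so they say nothing about the members. The causes of the count changes were not tested. CA9 and EGLN3 lay near the detection minimum, where precision was lowest.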
